A study of Schizosaccharomyces pombe with 6 samples.

Results

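The genes described here are the spo and meu genes of fission yeast (*Schizosaccharomyces pombe*), which were named for mutants that fail to form spores (spo) and for transcripts found to be more abundant in meiosis (meu, meiotic expression upregulated). The members were picked by a rule on gene names: every probe set, the group of short probes that reports 1 transcript on the array, whose annotation gives a single *S. pombe* gene called spo or meu followed by a number, except spo12. This gave 27 genes, 9 spo and 18 meu, each with 1 probe set, out of 2899 *S. pombe* genes with a named probe set (2917 probe sets). Shares over all *S. pombe* probe sets refer to these 2917. A further 5177 probe sets without a gene name in the annotation used here are not counted in them. Total RNA was measured on 3 arrays of cells with the genotype isp7+ null and on 3 arrays of wild-type cells. Both strains were in exponential growth at the same temperature in Edinburgh minimal medium with ammonium chloride as nitrogen source, so neither group was starved or induced to mate. The labels name no other allele, no mating type and no construct for the deletion, and they do not say whether replicates came from separate cultures. Isp7 is a protein of the 2-oxoglutarate- and iron-dependent dioxygenase family, and the series' title ties it to amino acid uptake and TOR signalling.

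Sporulation in fission yeast follows meiosis. The spindle pole bodies are modified at the second division, membrane vesicles fuse on them into the forespore membrane that surrounds each nucleus, and a spore wall is then laid down. Starvation for nitrogen starts the programme, and in growing cells most meiotic genes are not transcribed or their transcripts are removed, whereas several spo genes also serve secretion, lipid synthesis or the spindle pole body during growth.

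Values are log2 probe set values after robust multi-array averaging (RMA). The deposited table holds probe sets for budding yeast (*Saccharomyces cerevisiae*) as well, which should find no matching RNA here, and percentile 95 of their mean values, 7.08, was taken as background. In this text a gene rose or fell when limma's adjusted p (Benjamini-Hochberg over all 2917 probe sets) was under 0.05 and the change at least 1.5-fold, a log2 change of 0.585. It was higher or lower when only the adjusted p was passed. The isp7 probe set stood at 6.02, 6.38 and 6.17 in the null arrays, against 11.70, 11.63 and 11.55 in the wild-type arrays, the direction of the labels. Over *S. pombe* probe sets the correlation between arrays was 0.998 to 0.999 inside a genotype and 0.973 to 0.978 between the genotypes. With 3 arrays a group, precision is limited by their number.

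The spo and meu genes split between genes at the background and genes with a clear signal in growing cells. Of the 27, 4 had a mean over the 6 arrays at or below background and a further 8 lay less than 1 log2 unit above it. Thus 12 (44.4%) were at or near background, against 5.11% of all *S. pombe* probe sets with a gene name. The 4 at or below background were spo4, spo6, meu10 and meu22. The 8 just above it were meu6, meu13, meu15, meu17, meu26, meu27, meu32 and spo5. Just inside that limit meu32 averaged 8.05, and just outside it meu14 averaged 8.10. The other 15 genes, spo3, spo7, spo9, spo14, spo15, spo20, meu7, meu8, meu14, meu18, meu23, meu25, meu29, meu31 and meu34, had means 1 log2 unit or more above background. RMA compresses differences near the background, which limits what the values of these 12 genes can show.

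**Figure D1:**
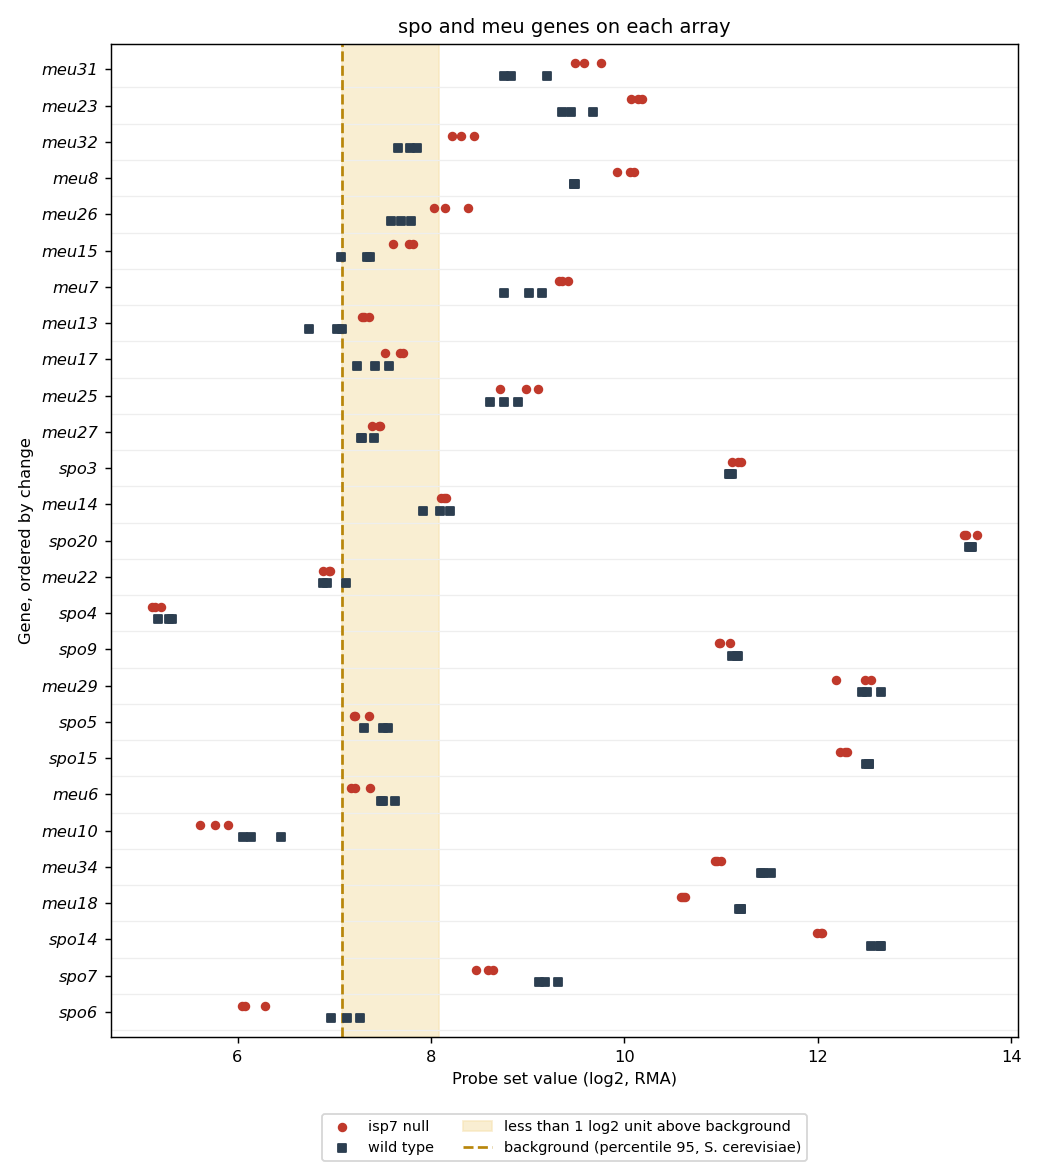
Probe set values (log2, RMA; horizontal axis) of the 27 spo and meu genes, 1 row per gene in the order of its change, with 3 isp7 null arrays (circles, upper line of each row) and 3 wild-type arrays (squares, lower line). The dashed line is the background of 7.08 and the shaded band the 1 log2 unit above it; 12 genes have means in the band or to its left.

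In the null strain single spo and meu genes differed from wild type in both directions. Of the 27 genes, 2 rose (meu31 and meu23) and 4 fell (spo6, spo7, spo14 and meu18), while 4.22% of all *S. pombe* probe sets rose and 4.39% fell. The 6 called genes are 22.2% of the 27, beside 8.60% of all probe sets that rose or fell, and spo6 among them lies at the background. None of the 27 reached 2-fold, a size that 1.68% of all probe sets reached. The median log2 change of the 27 genes was -0.02, against -0.05 over all *S. pombe* probe sets. By the adjusted p without a fold threshold, 9 of the 27 were higher, beside 29.3% of all probe sets, and 10 were lower, beside 41.3%. Together these 19 genes are 70.4% of the 27, close to the 70.7% of all *S. pombe* probe sets. Groups were free of overlap in 18 of the 27 genes, beside 76.1% of all probe sets. The null arrays were above every wild-type array for 9 genes (30.9% of all probe sets) and below for 9 (45.2% of all probe sets).

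Signs differed between the families. Among the 9 spo genes none rose, 3 fell, and 8 of 9 had a negative log2 change, with a median of -0.20 and a range of -0.98 to 0.07. Among the 18 meu genes 2 rose, 1 fell, and 12 of 18 had a positive log2 change, with a median of 0.20 and a range of -0.59 to 0.68. Over all *S. pombe* probe sets 1702 of 2917 had a negative and 1215 a positive log2 change. The difference between the families was not tested.

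**Figure D2:**
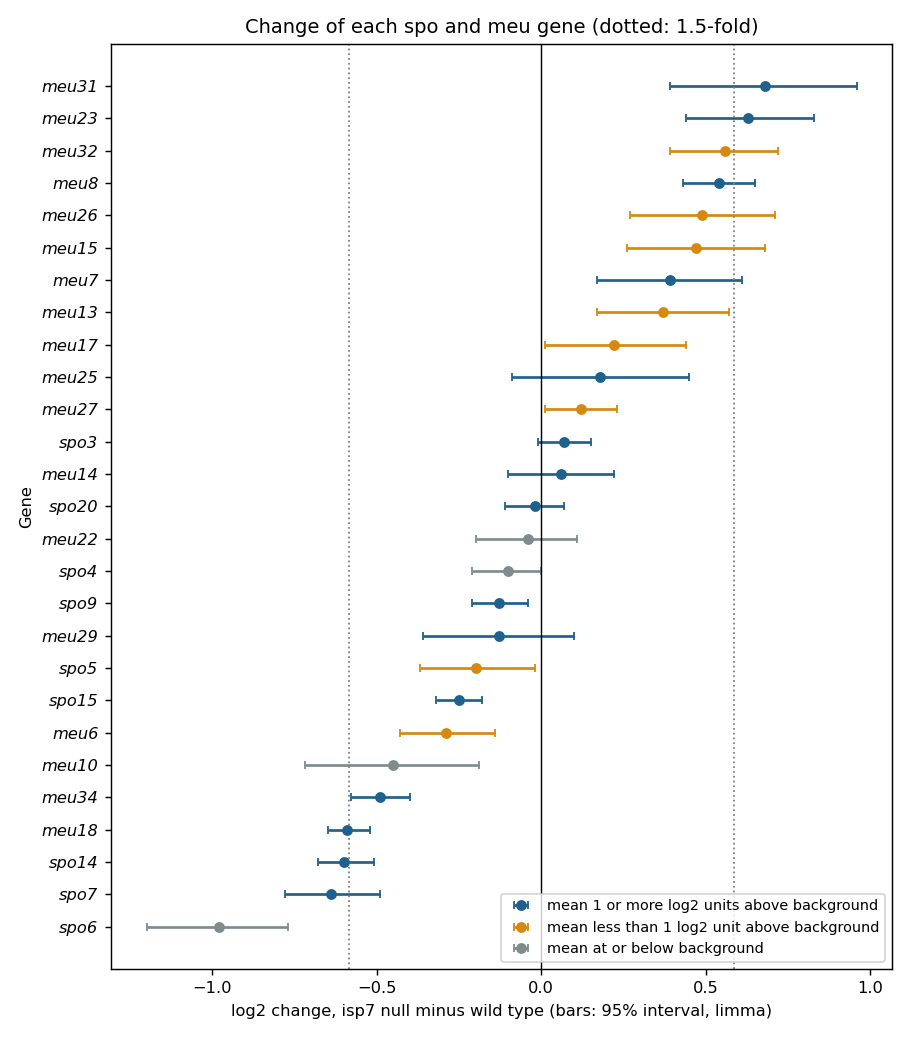
log2 change (isp7 null minus wild type, horizontal axis) of each of the 27 genes with the 95% interval of the limma fit, coloured by the gene's mean level relative to the background. Dotted lines mark 1.5-fold; meu31 and meu23 lie beyond the upper line, and spo6, spo7, spo14 and meu18 beyond the lower one.

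The spindle pole body and forespore membrane genes were led by spo7. Spo7 is a component of the meiotic spindle pole body needed to start forespore membrane assembly. The spo7 probe set stood at 8.47, 8.59 and 8.64 in the null arrays, against 9.12, 9.18 and 9.31 in wild type. All null values lay below all wild-type values, with a gap of 0.48 between the groups. The mean was 8.57 ± 0.0875 in the null and 9.20 ± 0.0936 in wild type (SD, n = 3 each), and spo7 fell by 0.64 on the log2 scale (SE 0.0609, limma adjusted p = 8.36e-05), which is 1.55-fold lower. The log2 change was -0.42 after correction for gene length and -0.58 without wild-type array 3, both short of 1.5-fold.

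The gene of the coiled-coil spindle pole body protein Spo15, which spores need and growing cells also contain, was lower by less. Its values were 12.23, 12.28 and 12.30 in the null arrays, against 12.53, 12.53 and 12.50 in wild type. The groups did not overlap, and the log2 change was -0.25 (SE 0.0300, limma adjusted p = 0.000245). After correction for gene length it was -0.03 (limma adjusted p = 0.340); spo15 is the longest of the 27 genes, at 6173 bases.

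For the genes that act on the forespore membrane itself no change passed the test. The spo3 gene, for a membrane protein of the forespore membrane, had 11.21, 11.17 and 11.11 in the null arrays, against 11.11, 11.08 and 11.09 in wild type, a log2 change of 0.07 (95% interval -0.01 to 0.15, limma adjusted p = 0.0904). With the arrays centred on their medians it was 0.12 (limma adjusted p = 0.0277) and after correction for gene length 0.27 (limma adjusted p = 0.000799). The meu14 gene, whose product sits at the leading edge of the growing forespore membrane, had 8.13, 8.16 and 8.10 in the null arrays, against 8.09, 7.92 and 8.20 in wild type. The groups overlapped, and the log2 change was 0.06 (95% interval -0.10 to 0.22, limma adjusted p = 0.444).

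Genes that link sporulation to secretion and lipid metabolism differed among themselves. Spo14 is the homologue of budding yeast Sec12, the exchange factor that starts vesicle budding from the endoplasmic reticulum. The spo14 probe set stood at 11.99, 12.04 and 12.03 in the null arrays, against 12.64, 12.65 and 12.55 in wild type. The groups were separated by 0.52 while each group spanned little, with SDs of 0.0223 in the null and 0.0539 in wild type. The gene fell by 0.60 (SE 0.0349, limma adjusted p = 1.23e-05), 1.51-fold lower. This lies close to the threshold. The change was short of 1.5-fold with median centring (-0.55), repeated quantile normalization (-0.56) and correction for gene length (-0.53), and when wild-type array 1 or 2 or null array 1 was left out (-0.58 each).

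The spo20 gene, for the homologue of the phosphatidylinositol transfer protein Sec14, had 13.51, 13.64 and 13.53 in the null arrays, against 13.59, 13.58 and 13.56 in wild type. The groups overlapped, and the 95% interval of the log2 change was -0.11 to 0.07 around -0.02 (limma adjusted p = 0.620). The spo9 gene, for a prenyl diphosphate synthase and also listed as erg20, had 11.09, 10.99 and 10.98 in the null arrays, against 11.17, 11.16 and 11.11 in wild type. All null values of spo9 were the lower ones, by a gap of 0.03, and its log2 change was -0.13 (SE 0.0371, limma adjusted p = 0.0177). This call ended with the arrays centred on their medians (-0.08, limma adjusted p = 0.142) and with repeated quantile normalization (-0.06, limma adjusted p = 0.225). It also ended with all probe sets of the array in the fit (limma adjusted p = 0.0701). The same held without any of wild-type arrays 1 and 2 and null arrays 2 and 3 (limma adjusted p between 0.0507 and 0.0605).

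The genes spo4, spo6 and spo5 were at or near background. Spo4 is a protein kinase of the Cdc7 family that acts in meiosis, and Spo6 is its regulatory partner, related to budding yeast Dbf4. The spo6 probe set read 6.28, 6.05 and 6.08 in the null arrays, against 7.13, 6.97 and 7.27 in wild type. It had the largest change of the 27 genes and fell by 0.98 (SE 0.0904, limma adjusted p = 6.89e-05). All null arrays and 1 of 3 wild-type arrays were at or below the background of 7.08, however, and counted from the background instead of from the null values the change was only -0.04, at least 1.03-fold lower. With only probe sets above background in the fit, spo6 was not tested and 3 genes fell. Its partner gene spo4 had 5.15, 5.21 and 5.12 in the null arrays, against 5.32, 5.29 and 5.18 in wild type. All 6 values of spo4 were below background, and it did not pass the test (limma adjusted p = 0.0687).

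The spo5 gene, for an RNA-binding protein that cells need in the second meiotic division, had 7.21, 7.36 and 7.20 in the null arrays, against 7.56, 7.31 and 7.50 in wild type. The groups overlapped, and the log2 change of -0.20 passed narrowly (SE 0.0736, limma adjusted p = 0.0440). Under 10 of the 15 alternatives it no longer did, with limma adjusted p up to 0.136.

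The signal was also low for meu13, just above background, and for meu10, below it. The meu13 gene, for the homologue of the pairing factor Hop2, had 7.36, 7.29 and 7.31 in the null arrays, against 7.03, 6.74 and 7.08 in wild type. All wild-type arrays were at or below background and all null arrays above it, and the log2 change was 0.37 (SE 0.0849, limma adjusted p = 0.00581). Counted from the background, the change was 0.24, at least 1.18-fold higher. The meu10 gene, for a cell surface protein needed for the spore wall to mature, had 5.77, 5.61 and 5.90 in the null arrays, against 6.45, 6.14 and 6.06 in wild type. All its values were below background, so no fold is given, although the groups did not overlap (limma adjusted p = 0.00884, and 0.0540 without variance moderation).

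Of the meu genes that belong to families of enzymes and transporters, meu8 and meu7 were higher and meu17 and meu22 did not pass the test. The meu8 gene, listed as atd3 in the newer annotation and encoding a protein of the aldehyde dehydrogenase family, had 9.92, 10.10 and 10.06 in the null arrays, against 9.48, 9.48 and 9.49 in wild type. The groups were separated by 0.43, and the wild-type arrays differed little (SD 0.00473). The log2 change was 0.54 (SE 0.0472, limma adjusted p = 5.47e-05), short of 1.5-fold. It passed 1.5-fold with the arrays centred on their medians (0.59), with repeated quantile normalization (0.59), after correction for gene length (0.62) and without null array 1 (0.59).

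The meu7 gene, for a protein of the alpha-amylase family and also listed as aah4, had 9.32, 9.35 and 9.42 in the null arrays, against 9.01, 8.76 and 9.15 in wild type. The groups did not overlap, and the log2 change was 0.39 (SE 0.0920, limma adjusted p = 0.00684). The meu17 gene, for a protein of the glucosidase family, had 7.52, 7.68 and 7.71 in the null arrays, against 7.42, 7.24 and 7.57 in wild type. The groups overlapped, and its log2 change was 0.22 (95% interval 0.01 to 0.44, limma adjusted p = 0.0556). It passed under 6 of the 15 alternatives, among them median centring (limma adjusted p = 0.0200) and correction for gene length (0.0314). The meu22 gene, for a protein of the amino acid permease family, was at 6.96, 6.88 and 6.95 in the null arrays, against 6.92, 6.88 and 7.12 in wild type, which overlapped at the background (limma adjusted p = 0.554).

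The meu genes that rose or fell were ones for which no role is given here. meu31 had 9.49, 9.58 and 9.76 in the null arrays, against 9.20, 8.76 and 8.83 in wild type. All null values were above all wild-type values, by a gap of 0.29. The mean was 9.61 ± 0.138 in the null and 8.93 ± 0.234 in wild type (SD, n = 3 each), and meu31 rose by 0.68 (SE 0.121, limma adjusted p = 0.00182), 1.60-fold higher. It kept the call under all 15 alternatives, at log2 changes of 0.59 to 0.81. The lower end was reached without wild-type array 2, which held the lowest wild-type value.

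meu23 had 10.14, 10.18 and 10.07 in the null arrays, against 9.68, 9.35 and 9.45 in wild type. Here too the null arrays stood above every wild-type array, by a gap of 0.39. It rose by 0.63 (SE 0.0817, limma adjusted p = 0.000360), 1.55-fold higher, and was short of 1.5-fold after correction for gene length (0.50) and without wild-type array 2 (0.56).

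meu18 had 10.61, 10.63 and 10.59 in the null arrays, against 11.18, 11.21 and 11.21 in wild type. The spread was small in both groups, with SDs of 0.0206 in the null and 0.0175 in wild type, and the groups were separated by 0.55. It fell by 0.59 (SE 0.0265, limma adjusted p = 6.15e-06), 1.50-fold lower, which is the edge of the threshold. It was short of 1.5-fold with median centring (-0.54), repeated quantile normalization (-0.55) and correction for gene length (-0.54), and when the third null array (-0.57) or either of wild-type arrays 2 and 3 (-0.58 each) was dropped. The meu34 gene, for a RING finger protein, moved the same way, with 10.96, 10.94 and 11.00 in the null arrays, against 11.41, 11.52 and 11.43 in wild type. Its groups did not overlap, and it was lower, at -0.49 on the log2 scale (SE 0.0374, limma adjusted p = 3.33e-05), short of 1.5-fold under all 15 alternatives.

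The genes meu32, meu26 and meu15 lay near the background and had null arrays above all wild-type arrays. meu32 had 8.31, 8.22 and 8.44 in the null arrays, against 7.86, 7.66 and 7.78 in wild type, which is a difference of 0.56 (SE 0.0694, limma adjusted p = 0.000298) on the log2 scale. It reached 1.5-fold with median centring (0.61), without wild-type array 1 (0.61) and without null array 2 (0.61). meu26 had 8.38, 8.14 and 8.03 in the null arrays, against 7.69, 7.59 and 7.79 in wild type. meu15 had 7.61, 7.81 and 7.77 in the null arrays, against 7.07, 7.37 and 7.34 in wild type, where 1 array was at or below background. Both were higher without reaching 1.5-fold, with log2 changes of 0.49 for meu26 (SE 0.0924, limma adjusted p = 0.00238) and 0.47 for meu15 (SE 0.0882, limma adjusted p = 0.00228).

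The remaining 4 meu genes moved little. meu6 had 7.21, 7.37 and 7.17 in the null arrays, against 7.48, 7.50 and 7.63 in wild type, without overlap and at -0.29 on the log2 scale (SE 0.0623, limma adjusted p = 0.00477). meu27 had a log2 change of 0.12 with overlapping groups (limma adjusted p = 0.0458), a call that ended under 9 of the 15 alternatives (limma adjusted p up to 0.151). For meu25 the log2 change was 0.18, with a 95% interval of -0.09 to 0.45, and for meu29 it was -0.13, with an interval of -0.36 to 0.10. The groups of meu25 and meu29 overlapped and neither passed the test, although meu25 did so without null array 1 (0.29, limma adjusted p = 0.0213).

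**Figure D3:**
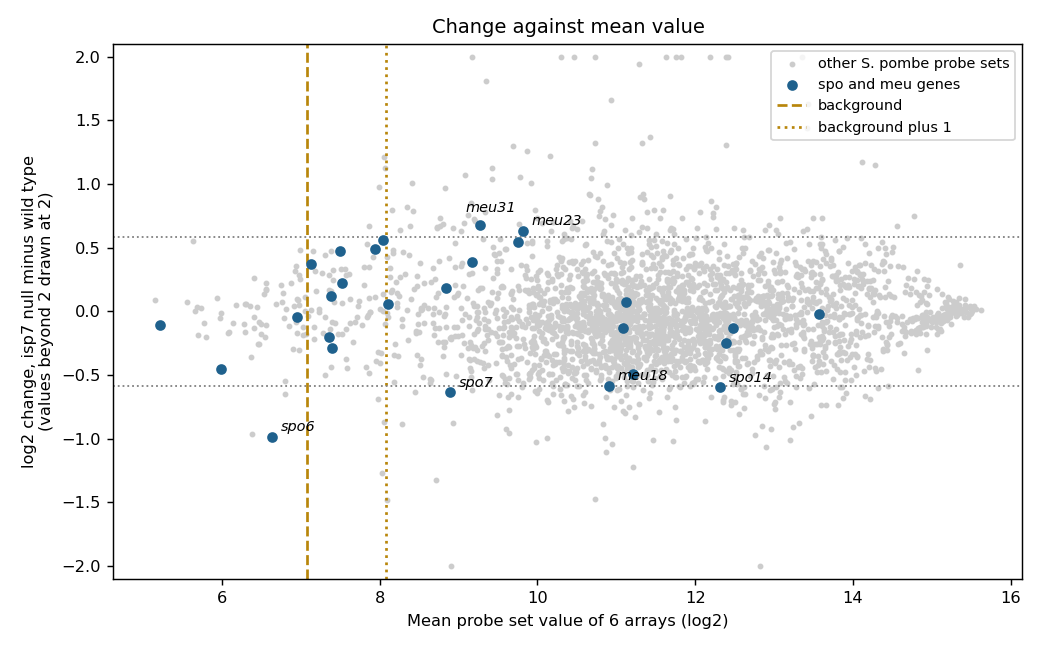
log2 change (vertical axis; changes beyond 2 are drawn at 2) against the mean probe set value of 6 arrays (horizontal axis) for all *S. pombe* probe sets in grey and the 27 spo and meu genes in blue. The dashed vertical line is the background of 7.08 and the dotted one 1 log2 unit above it; of the 6 named genes that rose or fell, spo6 alone is left of the background line.

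Calls were also counted by the level of the genes, with no test of a difference between levels. Of the 12 genes at or near background, 1 fell and none rose, beside 6.71% of the 149 *S. pombe* probe sets of that level that rose or fell. By the adjusted p alone 9 of these 12 passed, beside 48.3% of the 149, and in 7 of the 12 the groups did not overlap, also beside 48.3%. Of the 15 genes with a clear signal, 2 rose and 3 fell, beside 8.71% of the 2768 probe sets of that level. By the adjusted p alone 10 of these 15 passed, beside 71.9%.

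Shorter genes tended to higher changes, among the 27 genes and over all *S. pombe* probe sets. Spearman's rho between log2 change and annotated gene length was -0.380 over the 27 genes and -0.367 over 2917 probe sets, given as a description because all points come from the same 6 arrays. The 9 shortest genes (806 to 1430 bases) had a median log2 change of 0.37, with 6 of 9 positive, and all probe sets of that length a median of 0.08. The 9 of middle length (1476 to 2126 bases) had a median of -0.10, with 3 of 9 positive and 3 of the 4 genes that fell, against -0.07 for all probe sets of that length. The 9 longest (2197 to 6173 bases) had a median of -0.04, against -0.15 for all probe sets of that length, so that among the 27 genes the lowest median was in the middle class and not in the longest. The median length was 1872 bases for spo genes and 1526 bases for meu genes. After correction for gene length meu31 and meu8 rose and spo6 fell, and meu23, meu18, spo7 and spo14 were short of 1.5-fold. The part of length in the split between spo and meu genes was not tested.

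**Figure D4:**
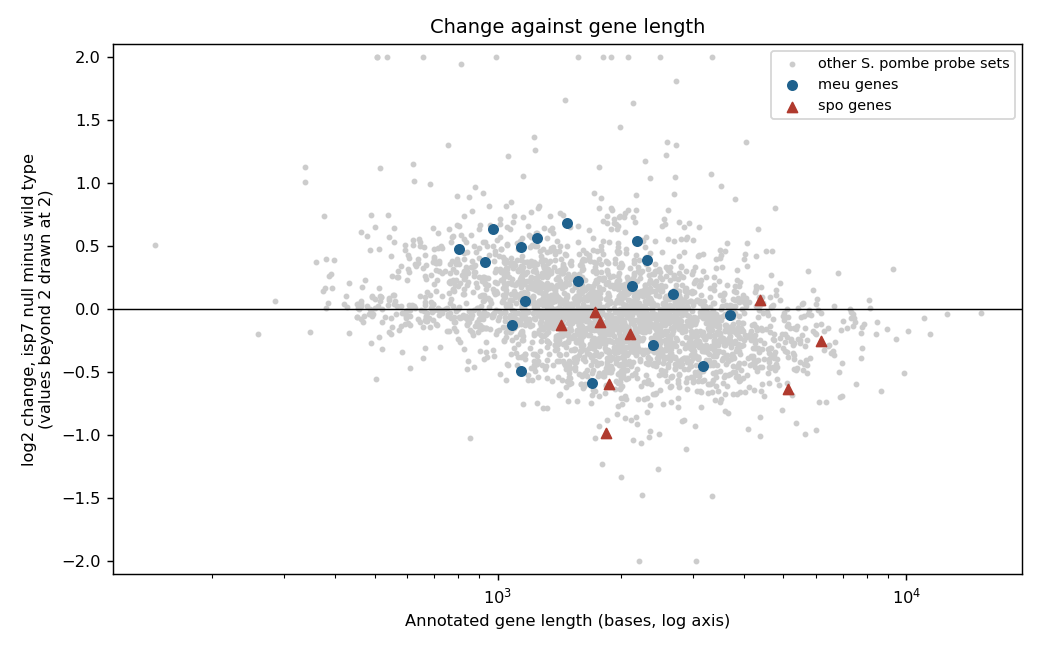
log2 change (vertical axis; changes beyond 2 are drawn at 2) against annotated gene length (horizontal log axis, bases) for all *S. pombe* probe sets in grey, the 18 meu genes as circles and the 9 spo genes as triangles. Triangles lie at or below 0 except that of spo3, at 0.07.

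One wild-type array contributed more than its share to the low values. Wild-type array 2 was the lowest of its group for 16 of the 27 genes (59.3%), against 37.7% of all *S. pombe* probe sets. Without it 1 gene rose (meu31) and 2 fell (spo6 and spo7). Without wild-type array 3 also 2 fell (spo6 and spo14). Of the calls lost without wild-type array 2, only that of meu23 was a gene with its lowest wild-type value there (9.35). For meu18 and spo14 wild-type array 2 read 11.21 and 12.65, not the lowest of its group. Their changes without it were -0.58 each, at the edge of 1.5-fold.

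**Figure D5:**
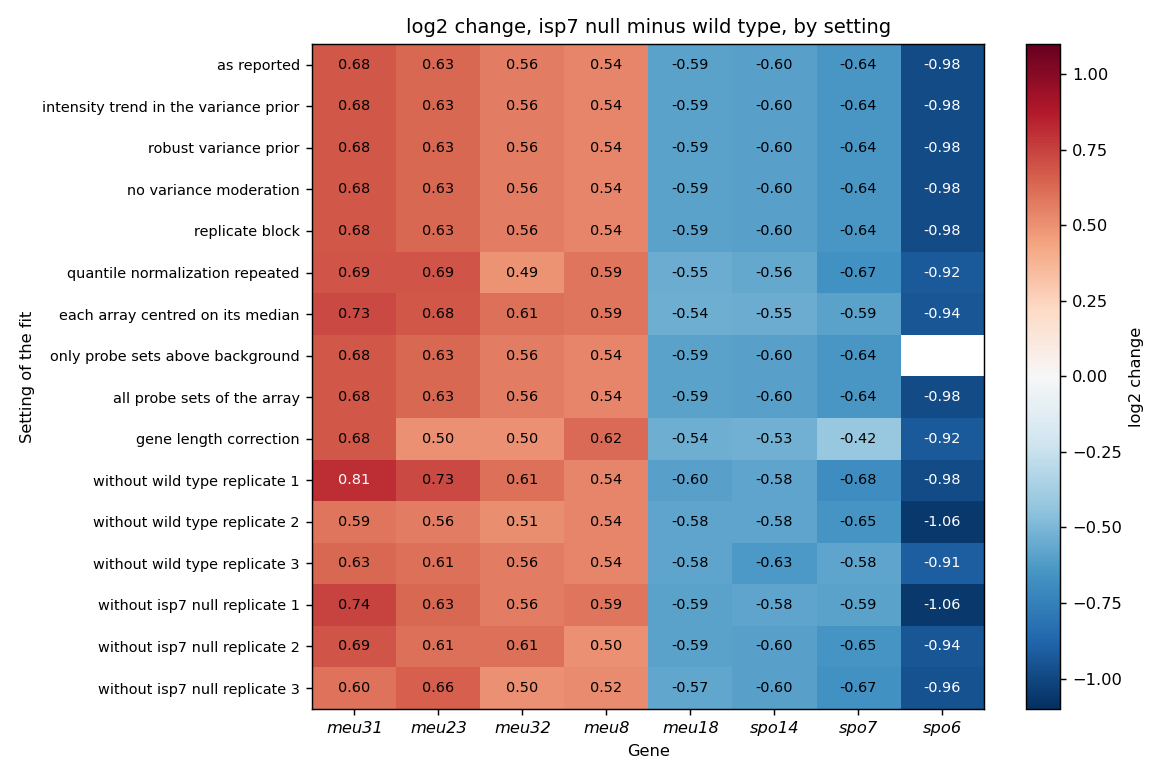
log2 change (isp7 null minus wild type; colour and printed value) of the 8 genes that rose or fell under any setting of the fit (columns), by setting (rows). Values keep their sign in every cell; the empty cell is spo6, which the filter on background removes.

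Annotated spans of neighbouring genes cross those of most of the 27 genes, as they do for all *S. pombe* genes with a named probe set. In the RefSeq annotation 24 of 27 overlap some other gene, mostly a non-coding RNA (88.9%, against 91.7% of all *S. pombe* genes with a probe set), and 7 overlap a protein-coding gene (25.9%, against 42.7%). Of these 7 coding neighbours 3 had a named probe set. meu6 overlaps clr4, the gene of a histone methyltransferase, which averaged 6.47 in the null and 7.12 in wild type, a log2 change of -0.65 at the background (limma adjusted p = 0.000566) beside -0.29 for meu6. spo5 overlaps pcf1, with a log2 change of -0.18 (limma adjusted p = 0.00455) beside -0.20 for spo5. meu27 overlaps the checkpoint kinase gene chk1, which averaged 6.82 in the null and 7.13 in wild type, a log2 change of -0.31 at the background (limma adjusted p = 0.00143) beside 0.12 for meu27. Whether a probe set picks up its neighbour's transcript was not tested.

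Other genes of meiosis and sporulation were counted in 3 lists, in which 6 genes rose and none fell at 1.5-fold. Over all *S. pombe* probe sets 4.22% rose and 4.39% fell. By the adjusted p without a fold threshold, 29.3% of all probe sets were higher and 41.3% lower. Of 15 regulators, 3 rose and none fell, and 8 were at or near background, with a median log2 change of 0.06. By the adjusted p alone 7 of the 15 were higher and 2 lower. The mei2 gene, for the RNA-binding protein that drives entry into meiosis, had 11.91, 12.02 and 12.02 in the null arrays, against 10.48, 10.81 and 10.69 in wild type. All null values were higher, and mei2 rose by 1.32 (SE 0.0817, limma adjusted p = 1.35e-05). The transcription factor gene rep1 rose by 0.73 (SE 0.0564, limma adjusted p = 3.45e-05). The zinc finger gene rsv2 rose by 1.04 with a wide spread, with 10.63, 9.81 and 9.40 in the null arrays, against 9.09, 8.70 and 8.93 in wild type (SE 0.286, limma adjusted p = 0.0139, and 0.0735 without variance moderation).

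The mei4, mei3 and mmi1 genes did not reach 1.5-fold. The mei4 gene, for the forkhead factor of the middle meiotic genes, had 7.45, 7.88 and 7.83 in the null arrays, against 7.86, 7.80 and 7.82 in wild type. The groups overlapped near background, with a log2 change of -0.10 (limma adjusted p = 0.396). The mei3 gene, for an inhibitor of the Pat1 kinase made in diploid cells that carry both mating types, was below background in both groups, with means of 6.32 in the null and 6.26 in wild type. The ste11 gene, for the transcription factor of sexual differentiation, was higher by 0.44 (SE 0.138, limma adjusted p = 0.0241), short of 1.5-fold. Its call ended without wild-type array 1 (limma adjusted p = 0.0832) or 2 (0.0537). It also ended without variance moderation (limma adjusted p = 0.0973) and with replicate number as a block (0.0569). The log2 change of ste11 was 0.29 without null array 1. After correction for gene length ste11 rose by 0.63 (limma adjusted p = 0.00644). The mmi1 gene, whose product marks meiotic transcripts for removal in growing cells, had 9.02, 8.97 and 9.02 in the null arrays, against 9.39, 9.36 and 9.38 in wild type. It was lower without overlap, at -0.37 on the log2 scale (SE 0.0269, limma adjusted p = 2.62e-05). Of 7 transcripts known as Mmi1 targets, spo5 among them, none rose or fell, 5 were at or near background, and the median log2 change was -0.05. By the adjusted p alone 2 of the 7 were higher and 1, spo5, was lower.

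Of 14 measured genes listed under spore assembly with other names, only isp6 rose and none fell, with a median of -0.07 and 1 gene at or near background. By the adjusted p alone more of the 14 were lower (5) than higher (3). The lowest was chs2, at -0.58 (SE 0.0582, limma adjusted p = 0.000106), just short of 1.5-fold. The isp6 gene, for a vacuolar protease, had 14.22, 14.32 and 14.18 in the null arrays, against 12.72, 12.49 and 12.63 in wild type, a rise of 1.63 (SE 0.0641, limma adjusted p = 4.49e-06). Of 22 genes of meiotic recombination and cohesion, rec25 and rec10 rose and none fell, with a median of 0.08 and 10 genes at or near background. By the adjusted p alone 8 of the 22 were higher and 2 lower. The linear element genes rec25 and rec10 had log2 changes of 0.78 (SE 0.0475, limma adjusted p = 1.29e-05) and 0.66 (SE 0.0700, limma adjusted p = 0.000142).

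Some markers of mating type moved with the genotype. Of 11 measured, mfm1, mam2, mfm3, map1 and mfm2 rose and none fell, beside 4.22% of all *S. pombe* probe sets that rose and 4.39% that fell. The median of the list was 0.53 (mfm2 stood at 0.49, short of 1.5-fold, after correction for gene length). The mam1 and mam4 genes were higher without reaching 1.5-fold, at 0.53 and 0.29 on the log2 scale, and 4 did not pass the test, with log2 changes of -0.13 for map3, -0.11 for sxa2, -0.09 for map2 and 0.02 for sxa1. The list pools genes of M cells (such as mfm and mam) and of P cells (such as map), so its mean describes neither type alone. The mean log2 value over the list was 11.00 to 11.08 in the null arrays, against 10.26 to 10.29 in wild type. The gene with the largest change in the list was mfm1, at a log2 change of 4.25. Without it the mean over the other 10 genes was 10.86 to 10.92 in the null arrays, against 10.45 to 10.49 in wild type. Whether the probe sets of the mfm genes pick up each other's transcripts was not tested, so their separate values are uncertain. Of the 11 genes 1 was at or near background. The part of these markers in the changes of the spo and meu genes was not tested.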

How the data were processed

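The authors deposited 1 log2 value for each probe set on each array, made with RMA in Partek 6.5 per the submitters' processing notes. All 6 columns were used, and values ranged from 4.03 to 15.65. Names came from the platform annotation and were updated by gene ID from NCBI RefSeq (ASM294v3), which also gave gene lengths and overlaps. The array's build is not given in the sources used here, so positions are left out.

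The background was percentile 95 of the means of 2601 *S. cerevisiae* probe sets. The difference isp7 null minus wild type was fitted with limma 3.58.1 (lmFit, then eBayes) in R 4.3.3 to 2917 *S. pombe* probe sets, two-sided, with no block and with thresholds from the series' design text. Intervals are 95% intervals of that fit. P-values reflect the spread among these arrays only, and part of it may be technical. The fitting code was tested on simulated data.

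The genes, the lists and the tests were chosen with earlier results of these data known. All 27 genes are named. From each list up to 5 genes that rose or fell, by size, are named, with mei4, mei3, mei2, mmi1, ste11 and chs2. Of several probe sets for 1 gene, that with the highest mean was used. Genes that overlap one of the 27 were named for that reason. From the lists, mso1, dms1, mat1-Mc, mat1-Mi, mat1-Pc and mat1-Pi had no named probe set and were not analysed here. The fit was repeated with an intensity trend, a robust prior or no moderation of variances, with replicate number as a block, with repeated quantile normalization or median centring, with a filter on background, with all probe sets of the array, with a loess correction for gene length, and without each array in turn. Other background percentiles were also tried.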

Additional observations from a re-analysis of the deposited data

How the results depend on the processing

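Over 15 alternatives to the fit, meu31 kept its rise in all 15, spo6 its fall in the 14 that could test it, meu23 and spo7 their calls in 13 each, and spo14 and meu18 in 9 each. With each array centred on its median, 4 of the 27 genes rose and 2 fell. With repeated quantile normalization 2 fell, and after the gene length correction 1 fell, with 79 of all *S. pombe* probe sets falling against 128 as reported. Leaving out 1 array gave 1 to 3 genes that rose and 2 to 4 that fell. The median log2 change of the 27 genes was -0.02 to 0.03 with 1 array left out and 0.07 with only probe sets above background, where the 4 lowest genes are dropped. At percentile 99 of the *S. cerevisiae* probe sets 10 of the 27 genes, instead of 4, were within background. Another 3 genes, which are neither spo nor meu genes, reversed after the gene length correction, bgs2 to 0.21, mok13 to 0.15 and cuf2 to -0.21, and none of these 3 had passed as reported. The small changes of meu14, spo20 and meu22, which did not pass, changed sign under 3 alternatives each. With the replicate block 2 of the 27 genes rose and 4 fell, as without it, and 9 were higher and 9 lower. The replicate numbers are not shown to pair the arrays: arrays of the same number had deviations correlated at -0.116, -0.251 and 0.108. Where no construction of an alternative shows it, the cause was not tested. Signal over background limits the values of 12 of the 27 genes.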

Other observations

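A gene outside the naming pattern, meu1-1, had 7.23, 7.35 and 7.32 in the null arrays, against 7.37, 7.46 and 7.48 in the wild-type arrays. It lay less than 1 log2 unit above background, like 7 of the 18 meu genes above, and its log2 change was -0.14 (SE 0.0443, limma adjusted p = 0.0259). Among the 27 genes, 4 (spo5, spo7, meu32 and meu34) also carry a mug name, for genes found as meiotically upregulated in a later survey. Of these 4, spo7 fell, spo5 and meu34 were lower and meu32 was higher, beside 70.7% of all *S. pombe* probe sets that passed the adjusted p. The genes spo5 and meu32 lay near background, and the spo5 call ended under most alternatives.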
